A study of Mus musculus with 48 samples.

Results

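Astrocytes of the mouse hippocampus and cortex were compared at postnatal day 14 (P14). The members are the 7 RNA-seq libraries labelled as P14 astrocytes of these regions, 3 from hippocampus and 4 from cortex, out of 48 libraries in the series. The series follows astrocytes of cortex, hippocampus and olfactory bulb at P1, P7 and P14, and at P28 compares animals labelled Gabbr1 control with Gabbr1 cKO. Its title is about inhibitory input and the astrocyte GABA-B receptor in the shaping of astrocytes. Of the P28 controls used below, the hippocampus libraries and cortex replicates 3 and 4 are labelled with tamoxifen. The P14 labels give tissue, cell type and age, and name no genotype, strain or treatment. How the cells were isolated, and which marker or transgene was used to select them, is not given in the sources used here.

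Astrocytes take up glutamate and GABA from synapses, buffer potassium, move water and bicarbonate, couple to each other through gap junctions and secrete proteins that set the number and maturity of synapses. Those of the dorsal forebrain arise from radial glia shortly before and after birth, divide locally, and extend their fine processes during the first postnatal weeks. The hippocampus differs from the neocortex in that its dentate gyrus goes on making granule neurons from astrocyte-like stem cells, and in that it lies beside the choroid plexus and the cortical hem, a source of Wnt and BMP signals in the embryo.

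Values are reads per gene divided by 1 scaling factor per library (normalised reads). The authors scaled the tables of the 2 regions separately, so whole reads were recovered and all developmental libraries of both regions were rescaled together. Reads assigned to genes lay between 7838934 and 15008466 in cortex and between 2539583 and 4248087 in hippocampus, so hippocampus was read less deeply in every library. The nuclear ribosomal RNA gene Rn45s took 19% to 22.42% of reads and was left out. Between 14315 and 15298 genes had a read in a cortex library and 12300 to 12432 in a hippocampus library. Cortex libraries correlated with each other at r = 0.942 to 0.954 across genes and hippocampus libraries at 0.806 to 0.824, against 0.811 to 0.854 between regions. By this measure hippocampus libraries were no closer to each other than to cortex. The correlations were taken at full, unequal depth, and the part of depth in them was not tested. On reads thinned to the smallest library, the biological coefficient of variation was 16.1% in cortex and 46.1% in hippocampus. Cortex replicates 3 and 4 and hippocampus replicates 1 and 2 held reads of the Y-linked gene Ddx3y (578 to 973 normalised reads), and the others held Xist (323 to 533). Each region is in its own table with its own run of library names, 2 hippocampus names ending in v2, so region cannot be told apart from when or how the libraries of a region were made. The labels do not say that libraries came from separate animals, so p-values measure the spread between these libraries.

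The label was checked against 20 astrocyte markers, all of which were read in every library. Their summed level lay between 1091055 and 1229858 in cortex and between 1027026 and 1087717 in hippocampus. Slc1a2, the main glutamate transporter of astrocytes, had 772469, 821797, 787705 and 889890 in cortex and 708157, 778676 and 752092 in hippocampus. The connexin Gja1 had 7149, 6814, 6242 and 6882 in cortex and 6813, 6841 and 6846 in hippocampus, with a log2 difference of 0.01 ± 0.08 (SE). The regions overlapped for both genes. The summed marker levels lay side by side, the lowest cortex sum just above the highest hippocampus sum, but Slc1a2 alone made up most of each sum. By gene, 13 of the 20 markers differed between the regions, 5 higher and 8 lower in hippocampus, as given below.

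At P14, 825 of 11930 genes tested were higher in hippocampus (6.92%) and 989 lower (8.29%), 15.2% in all, by limma at a Benjamini-Hochberg adjusted p under 0.05. These shares over all genes are the background for each list count below. The libraries of the regions did not overlap for 3316 genes (27.8%), with hippocampus above for 1464 (12.3%) and below for 1852 (15.5%). Log2 differences are hippocampus minus cortex, as means of log2 values after adding 1 to each value. They can be larger or smaller than those of a count test. The median of excitatory neuron markers was -1.23 by limma and -0.56 by edgeR, and that of young neuron markers was 1.26 and 1.54. Over all genes the median log2 difference was -0.14. Under other scalings that median was -0.24 (TMM), -0.22 (deposited scaling), -0.095 (the 7 P14 libraries alone) and -0.078 (quantile). At the main scaling it was -0.015 by edgeR on reads and 0.0105 with a minimum mean of 100. The share of calls that were higher in hippocampus was 45.5% in the main test, 33.2% with TMM and 32.1% with the deposited scaling. Without any 1 of cortex replicates 1, 2, 3 or 4 the number of calls was 959, 937, 992 or 942. Without hippocampus replicate 1, 2 or 3 it was 2167, 2249 or 2419. The test takes 1 spread per gene for both regions, although hippocampus libraries spread more widely, and SEs and p-values rest on that.

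**Figure D1:**
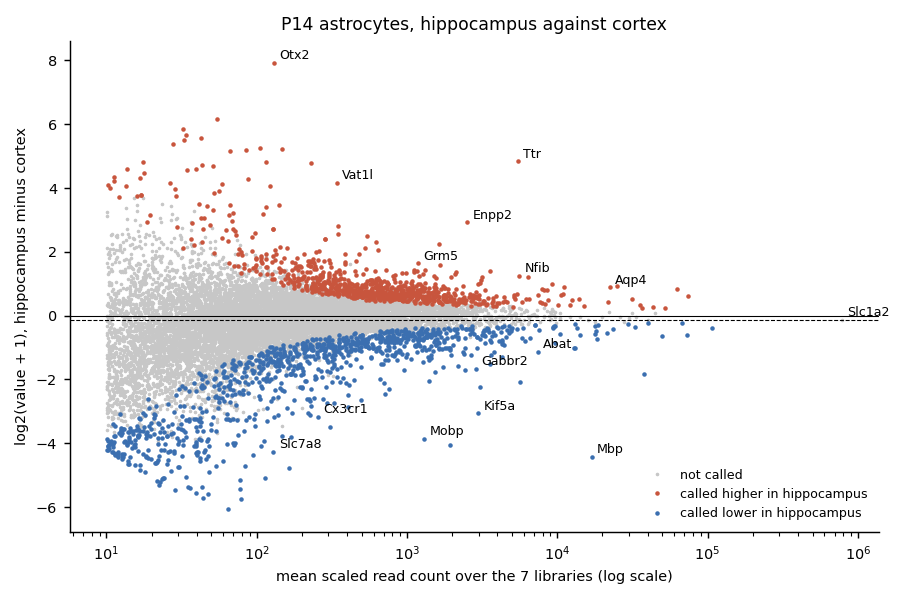
Log2 difference between hippocampus and cortex at P14 (y axis, hippocampus minus cortex) against mean normalised reads over the 7 libraries (x axis, log scale) for 11930 genes, with 825 called higher and 989 called lower in colour. The dashed line is the median of all genes, -0.14, and the widest differences lie among genes of low and middle level.

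The 12 largest rises among genes of at least median level whose libraries did not overlap were Otx2, Pdyn, Ttr, Clic6, Vat1l, Slit2, Enpp2, Fam167a, Prox1, Pcp4l1, Top2a and Tmem132b. Otx2, a homeodomain factor of the choroid plexus and of anterior brain regions (chromosome 14, 48657677 to 48673819 on the minus strand of mm10), had 1 read over all cortex libraries. Its values were 235, 469 and 208 in hippocampus. Vat1l had 35.3, 59.8, 28 and 38.4 in cortex and 833, 908 and 489 in hippocampus, an 18.4-fold higher mean in hippocampus (log2 difference 4.17 ± 0.35 (SE), adjusted p = 2.04e-05). Its lowest hippocampus library was several-fold above its highest cortex library. Pdyn, the precursor of dynorphin peptides, which dentate granule neurons make, had 30.6, 12.4, 1.68 and 1.88 in cortex and 117, 458 and 406 in hippocampus (log2 difference 5.22 ± 0.90 (SE), adjusted p = 0.00257). Slit2, a repellent ligand for Robo receptors on axons, had 11.5, 31.6, 56.6 and 15 in cortex and 308, 168 and 388 in hippocampus (log2 difference 3.46 ± 0.57 (SE), adjusted p = 0.00204). Tmem132b, a membrane protein, had 159, 141, 222 and 197 in cortex and 1349, 796 and 912 in hippocampus (log2 difference 2.48 ± 0.23 (SE), adjusted p = 4.62e-05), and its hippocampus libraries spread less than those of Pdyn or Slit2. The log2 difference of Pdyn was 5.90 without cortex replicate 1 and 5.85 without hippocampus replicate 1, that of Ttr was 4.01 without cortex replicate 3, and that of Top2a was 1.94 without hippocampus replicate 2.

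The 12 largest falls by the same rule were Mal, Mbp, Slc7a8, Ptgds, Mobp, Fcer1g, Rgs6, Rims1, Kirrel2, Cx3cr1, Srcin1 and Kif5a. Mbp, Mobp and Mal encode proteins of myelin, and Cx3cr1 and Fcer1g encode receptor proteins of microglia. Mbp had 19099, 36427, 27036 and 32028 in cortex and 1093, 1878 and 1051 in hippocampus, a 21.4-fold higher mean in cortex (log2 difference -4.43 ± 0.22 (SE), adjusted p = 4.10e-07). Slc7a8, a transporter of neutral amino acids, had 175, 177, 179 and 341 in cortex and 12.6, 10.8 and 6.94 in hippocampus (log2 difference -4.28 ± 0.46 (SE), adjusted p = 1.38e-04). Kif5a, a kinesin heavy chain that carries cargo along microtubules, had 4246, 6195, 4185 and 4528 in cortex and 575, 697 and 447 in hippocampus (log2 difference -3.06 ± 0.17 (SE), adjusted p = 7.88e-07). The lowest cortex library stood several-fold above the highest hippocampus library for each of these 3 genes. The Rgs6 and Fcer1g calls were less firm, as adjusted p rose above 0.05 (the highest value is in brackets, here and for later genes) for Rgs6 without cortex replicates 1, 2, 3 or 4 (0.104) and Fcer1g without cortex replicates 2, 3 or 4 or hippocampus replicate 1 (0.0755). The log2 difference of Mal was -3.12 without hippocampus replicate 1, -5.89 without hippocampus replicate 2 and -5.40 without hippocampus replicate 3, that of Fcer1g was -2.62 without hippocampus replicate 2 and -5.28 without hippocampus replicate 3, that of Rgs6 was -1.77 without hippocampus replicate 1, -4.80 without hippocampus replicate 2 and -4.86 without hippocampus replicate 3, and that of Rims1 was -4.10 without hippocampus replicate 3.

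Differences followed gene length. Among the 96.5% of tested genes with a length in GENCODE, the 3839 with the shortest exonic length had a median log2 difference of -0.36 with 104 genes higher and 404 lower. The middle 3840 had -0.11 with 221 higher and 282 lower, and the 3839 with the longest had 0.05 with 483 higher and 275 lower. The part of length in the differences described here was not tested.

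Markers of other cell types differed strongly between the regions, in both directions. In bulk libraries, fewer cells of a type and less RNA per cell cannot be told apart. Of 16 markers of the choroid plexus epithelium, the sheet that secretes cerebrospinal fluid, 13 were higher in hippocampus, none lower, with a median log2 difference of 4.29 against -0.14 over all genes. Their summed level lay between 563 and 2044 in cortex and between 11517 and 23741 in hippocampus. Ttr, the thyroid hormone carrier that the choroid plexus secretes into cerebrospinal fluid, had 282, 1186, 70.0 and 1048 in cortex and 15059, 12972 and 7463 in hippocampus. Enpp2, which makes the lipid mediator lysophosphatidic acid, had 642, 751, 461 and 698 in cortex and 6171, 5966 and 2920.0 in hippocampus (log2 difference 2.92 ± 0.24 (SE), adjusted p = 2.01e-05). Kl, which encodes Klotho, had 2.04, 16.9, 5.04 and 9.38 in cortex and 480.4, 179 and 111 in hippocampus (log2 difference 4.80 ± 0.75 (SE), adjusted p = 0.00157). No hippocampus library reached down to the cortex libraries for these 3 genes. Sostdc1, a secreted BMP and Wnt antagonist, had 0, 3.39, 0 and 2.81 in cortex and 134, 73.1 and 86.7 in hippocampus (log2 difference 5.57 ± 0.94 (SE), adjusted p = 0.00232). No marker of the list was at 0 throughout either region, and Aqp1 and Kcnj13 did not pass the test (log2 differences 2.48 and 0.30). Adjusted p of 4 markers rose above 0.05 on leaving out 1 library: Folr1 without cortex replicates 1, 2 or 3 (0.0625), Prlr without cortex replicates 1, 2, 3 or 4 or hippocampus replicate 2 (0.0849), Kcne2 without cortex replicates 1, 2, 3 or 4 (0.0858) and Cldn2 without cortex replicates 1, 2, 3 or 4 or hippocampus replicate 2 (0.123). The log2 difference of Folr1 was 5.14 without cortex replicate 4, that of Prlr was 3.37 without hippocampus replicate 1 and that of Cldn2 was 4.44 without hippocampus replicate 3.

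Oligodendrocyte and microglial markers went the other way. All 9 tested markers of mature oligodendrocytes were lower in hippocampus (median log2 difference -4.43), with sums between 27832 and 47330 in cortex and between 3145 and 4619 in hippocampus. Mog, on the outer face of myelin, had 93.7, 53.1, 19.6 and 34.7 in cortex and no read in hippocampus, which makes cortex at least 6.51-fold higher against a floor of 3 reads in each library. All 12 microglial markers were lower as well (median -2.94), with sums between 2821 and 6543 in cortex and between 509.7 and 1454 in hippocampus. Csf1r, the growth factor receptor that microglia need to survive, had 674, 1066, 923 and 1498 in cortex and 111, 323 and 333 in hippocampus (log2 difference -2.12 ± 0.36 (SE), adjusted p = 0.00233). Of 9 markers of oligodendrocyte precursors, 5 were lower and none higher (median -1.85, 7 at an unadjusted limma p under 0.05). Their summed level, in which high genes weigh most, differed little, between 1982 and 2304 in cortex and between 1811 and 2029 in hippocampus. The falls were in Sox10, Gpr17, Bmp4, C1ql1 and Neu4, whereas the precursor receptor Pdgfra (log2 difference -1.27) and the lineage factor Olig2 (0.52) did not pass the test. Sox10, the factor of the whole oligodendrocyte lineage, had 70.0, 44, 89.6 and 65.6 in cortex and 6.29, 0 and 3.47 in hippocampus (log2 difference -4.37 ± 0.83 (SE), adjusted p = 0.0046). Calls of 2 precursor genes, 1 oligodendrocyte gene and 6 microglial genes were lost without single libraries: Ermn without cortex replicates 1, 2, 3 or 4 or hippocampus replicate 3 (0.14), Bmp4 without cortex replicates 1, 2, 3 or 4 (0.102), C1ql1 without cortex replicates 1, 2, 3 or 4 (0.0944), P2ry12 without cortex replicates 2 or 4 (0.0634), Tmem119 without cortex replicates 1, 2 or 4 (0.0872), C1qa without cortex replicates 2 or 4 (0.0585), C1qb without cortex replicates 2 or 4 (0.0677), Trem2 without cortex replicates 2, 3 or 4 (0.0826) and Ctss without cortex replicates 2 or 4 (0.0595). Some log2 differences of these lists also moved by over 1.5 times without single libraries: Sox10 was -5.01 without hippocampus replicate 1 and -3.55 without hippocampus replicate 2, Bmp4 was -2.56 without hippocampus replicate 1 and -4.85 without hippocampus replicate 3, C1ql1 was -2.98 without hippocampus replicate 1, Tmem119 was -2.19 without hippocampus replicate 2 and -3.96 without hippocampus replicate 3, C1qa was -3.09 without hippocampus replicate 1 and -4.90 without hippocampus replicate 2, C1qb was -1.65 without hippocampus replicate 1 and -3.47 without hippocampus replicate 3, Trem2 was -5.42 without hippocampus replicate 2 and Ctss was -1.85 without hippocampus replicate 1 and -3.73 without hippocampus replicate 2.

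Other cell classes differed in part. Of 10 endothelial markers, 5 were lower in hippocampus, and their sums lay between 210.0 and 1731 in cortex and between 17.3 and 346 in hippocampus, with cortex replicate 3 the highest. Cldn5, the tight junction protein of brain vessels, had 34.6, 14.7, 96.3 and 24.4 in cortex and no read in hippocampus (at least 5.51-fold higher in cortex, adjusted p = 0.00556, and 0.0569 without cortex replicate 3). The other falls were in Flt1, Kdr, Ly6c1 and Esam, and the call was lost for Kdr without cortex replicates 1, 3 or 4 or hippocampus replicates 1 or 3 (0.094), Ly6c1 without cortex replicates 1 or 4 (0.0679) and Esam without cortex replicates 1, 2 or 4 (0.141). Ly6c1 and Esam did not reach the mean of 10 without cortex replicate 3, and the Kdr call was also lost by edgeR and DESeq2 and the Esam call with a pseudocount of 8 and with scaling over the 7 P14 libraries alone. The log2 difference of Kdr was -3.73 without hippocampus replicate 1, -6.34 without hippocampus replicate 2 and -3.75 without hippocampus replicate 3, and that of Esam was -4.74 without cortex replicate 1. Of 10 markers of young neurons, 4 were higher (Dcx, Sox11, Neurod1 and Igfbpl1), with sums between 853 and 1147 in cortex and between 1879.6 and 2881 in hippocampus. Sox11, a factor of newly born neurons, had 344, 532, 389 and 407 in cortex and 1175, 1246 and 964 in hippocampus (log2 difference 1.44 ± 0.18 (SE), adjusted p = 3.22e-04). Neurod1, which drives the maturation of granule neurons, had 0, 4.52, 0 and 0 in cortex and 77.6, 62.4 and 93.6 in hippocampus (log2 difference 5.67 ± 1.00 (SE), adjusted p = 0.00303), and Eomes, a factor of their precursors, had 0.679, 3.39, 0 and 2.81 in cortex and 37.8, 43 and 6.94 in hippocampus (log2 difference 3.37 ± 1.12 (SE), adjusted p = 0.0616). Of 6 markers of dentate granule neurons tested, 3 were higher (Prox1, Dsp and Stxbp6), with sums between 1119.8 and 1314 in cortex and between 1807 and 2135 in hippocampus. Of 13 markers of excitatory neurons 2 were lower: Camk2a, a calcium-dependent kinase of synapses (3003, 2786, 2501 and 1440.1 in cortex and 606, 1297 and 579 in hippocampus, adjusted p = 0.00336), and Nrgn, a calmodulin-binding protein of dendrites (log2 difference -2.62, adjusted p = 0.0061). Of 8 meningeal fibroblast markers 2 were lower, Dcn and Slc22a6. By limma, none of 5 mural markers (3 at an unadjusted p under 0.05, 2 lower by DESeq2, 0 by edgeR) and none of 3 inhibitory neuron markers (1 at an unadjusted p under 0.05, 0 by edgeR and DESeq2) passed the test. No blood marker reached the mean of 10 needed for testing. Adjusted p rose above 0.05 for Igfbpl1 without cortex replicates 1, 2, 3 or 4 or hippocampus replicates 1 or 3 (0.117) and Stxbp6 without cortex replicates 1, 2, 3 or 4 or hippocampus replicate 1 (0.0789). The log2 difference of Neurod1 was 6.29 without cortex replicate 2 and that of Nrgn was -3.29 without hippocampus replicate 2.

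**Figure D2:**
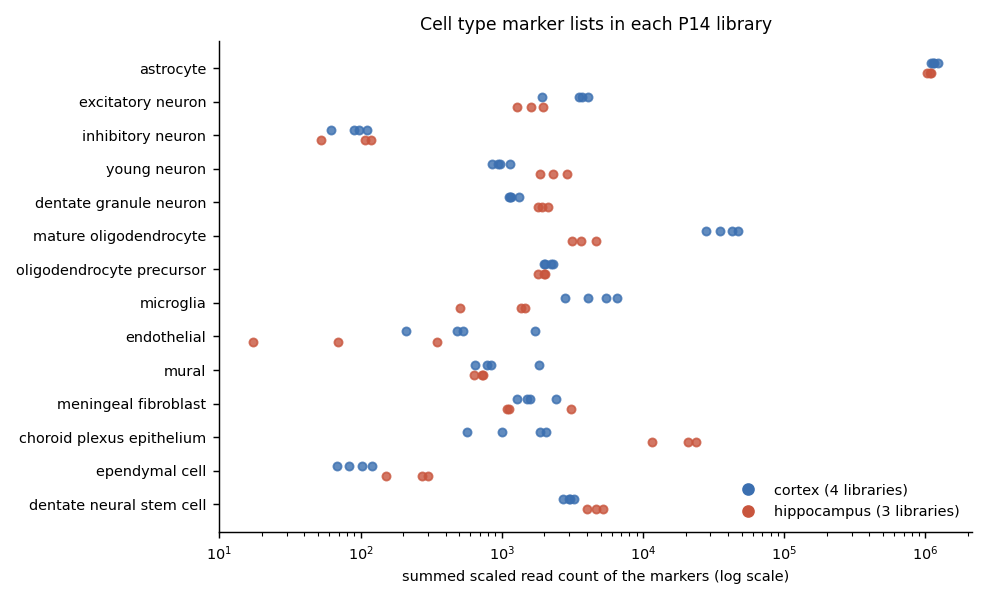
Summed normalised reads of 14 marker lists in each P14 library (log axis), cortex and hippocampus side by side. Choroid plexus markers lie at 563 to 2044 in cortex and 11517 to 23741 in hippocampus, and oligodendrocyte and microglial markers lie apart in the other direction. The astrocyte sums, mostly reads of Slc1a2, lie near 1 level.

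Among the astrocyte markers themselves, 5 of 20 were higher in hippocampus and 8 lower (median log2 difference -0.22, against -0.14 over all genes). The water channel Aqp4, which lines the endfeet on blood vessels, had 16225, 16311, 15641 and 17108 in cortex and 30682, 29193 and 30875 in hippocampus, 1.85-fold higher in hippocampus (log2 difference 0.89 ± 0.06 (SE), adjusted p = 6.33e-06). The bicarbonate transporter Slc4a4 (chromosome 5, 88886818 to 89239653, plus strand) had 25532, 27307, 25740 and 27632 in cortex and 36526, 40012 and 38782 in hippocampus (log2 difference 0.53 ± 0.06 (SE), adjusted p = 2.25e-04). The intermediate filament gene Gfap (chromosome 11, 102887336 to 102900912, minus strand) had 1381, 1292, 1301 and 1334 in cortex and 2637, 2168 and 2396 in hippocampus (log2 difference 0.85 ± 0.11 (SE), adjusted p = 3.82e-04). For all 3 genes the lowest hippocampus library was above the highest cortex library. The glial factor Sox9 was also higher (log2 difference 0.58 ± 0.10 (SE), adjusted p = 0.00315). So was the glutamate transporter Slc1a3, by a small margin that was lost with TMM or the deposited scaling (log2 difference 0.26 ± 0.06 (SE), adjusted p = 0.0168).

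The calcium-binding protein S100b led the falls, with 3447, 3170.3, 2924 and 2825 in cortex and 1384, 1280.0 and 1561 in hippocampus (log2 difference -1.13 ± 0.11 (SE), adjusted p = 5.99e-05). The fatty acid activating enzyme Acsbg1 had 5527, 5414, 4907 and 5264 in cortex and 3073, 2846 and 3100.3 in hippocampus (log2 difference -0.81 ± 0.08 (SE), adjusted p = 1.00e-04). The neurotensin receptor Ntsr2 had 6134, 4478, 4784 and 5447 in cortex and 2771, 3078 and 3253 in hippocampus (log2 difference -0.77 ± 0.11 (SE), adjusted p = 0.0011), and the extracellular chaperone Clu had 27846, 18932, 20015 and 22113 in cortex and 12349, 13185 and 13948 in hippocampus (log2 difference -0.74 ± 0.11 (SE), adjusted p = 0.00131). These 4 genes had no overlap between regions. Smaller falls were seen for the aldolase Aldoc (-0.36, adjusted p = 0.0141), the connexin Gjb6 (-0.67, adjusted p = 0.0195) and glutamine synthetase Glul (-0.22, adjusted p = 0.0441), given as log2 differences. Adjusted p rose above 0.05 for Gjb6 without cortex replicates 1, 2 or 4 (0.0661) and Glul without cortex replicates 1, 2 or 4 or hippocampus replicates 1 or 2 (0.115). With TMM the list stood at 4 higher and 13 lower, and with the deposited scaling at 4 and 14.

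**Figure D3:**
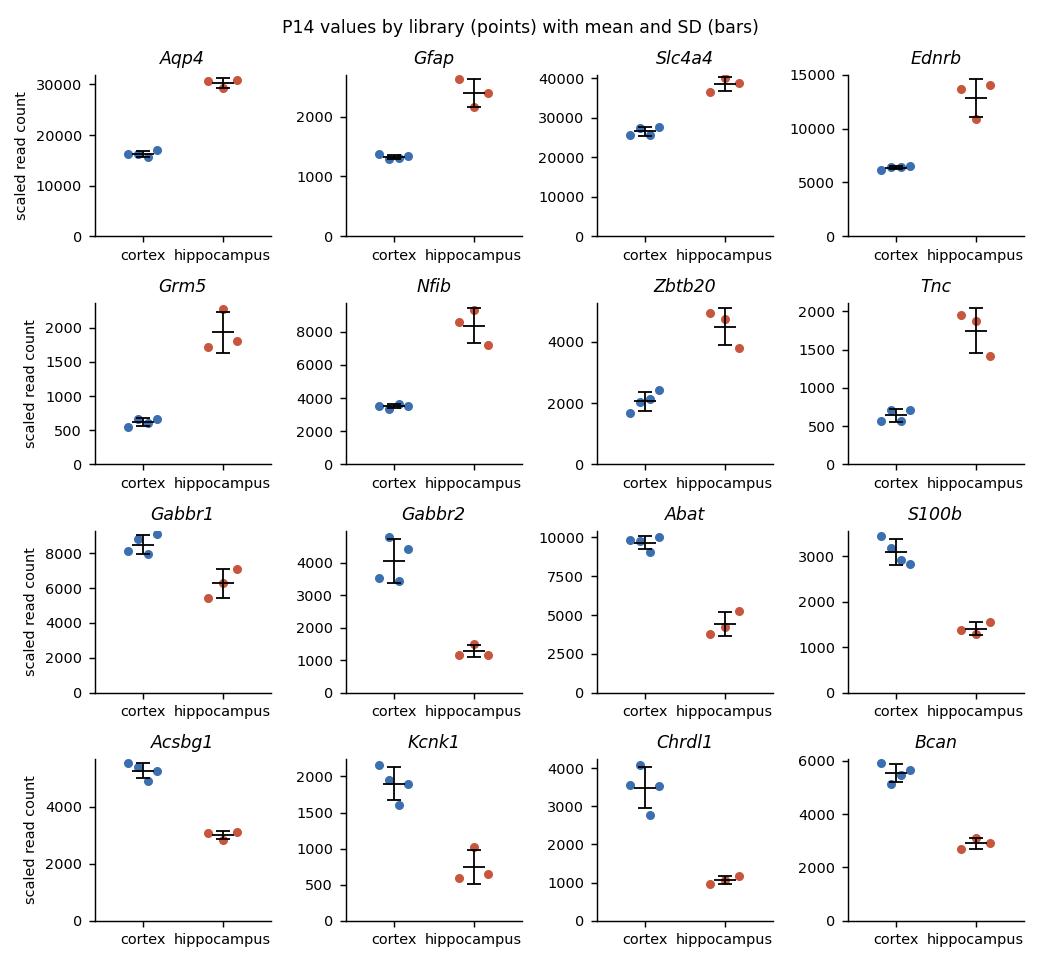
Normalised reads of 16 genes in each P14 library, cortex and hippocampus, as points with the mean and SD. Aqp4, Gfap, Slc4a4, Ednrb, Grm5, Nfib, Zbtb20 and Tnc lie higher in hippocampus and Gabbr1, Gabbr2, Abat, S100b, Acsbg1, Kcnk1, Chrdl1 and Bcan lower, in no case with overlap between the regions.

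Transcription factors that pattern the forebrain were mostly higher in hippocampus where they changed. Of 17 tested, 6 were higher and 2 lower (median 0.18). Zbtb20, which specifies hippocampal against neocortical identity (chromosome 16, 42875881 to 43642602, plus strand), had 1669, 2019, 2132 and 2414 in cortex and 4939.9, 4724 and 3790.5 in hippocampus (log2 difference 1.13 ± 0.13 (SE), adjusted p = 2.47e-04). The nuclear receptors Nr2f1 and Nr2f2, which set areas of cortex and hippocampus, had 395, 373, 356 and 398 in cortex and 785, 1054 and 662 in hippocampus, and 74.7, 30.5, 80.1 and 47.8 in cortex and 187, 265 and 239 in hippocampus. Their log2 differences were 1.10 ± 0.18 and 2.05 ± 0.40 (SE), with adjusted p = 0.00197 and 0.00544. Prox1, the granule neuron factor, had 40.8, 46.3, 17.4 and 46.9 in cortex and 172, 230.2 and 347 in hippocampus (log2 difference 2.73 ± 0.46 (SE), adjusted p = 0.00226). Each of these 4 genes separated the regions in every library. Dmrt3, a factor of the medial cortical wall, had no read in cortex and 31.5, 83.9 and 6.94 in hippocampus, at least 16.4-fold higher. Meis2 and Tox were lower (log2 differences -0.51 and -0.90). The dorsal factors Lhx2 (2528, 2340.5, 2217 and 2616 in cortex and 2009.5, 2472 and 2157 in hippocampus) and Emx2 (613, 646, 569 and 704 in cortex and 650.3, 817 and 381 in hippocampus) overlapped between the regions and did not pass the test. Adjusted p rose above 0.05 for Dmrt3 without cortex replicates 1, 2, 3 or 4 (0.0595), Meis2 without cortex replicates 1, 2, 3 or 4 or hippocampus replicate 2 (0.1) and Tox without cortex replicates 1, 3 or 4 (0.0985). The difference of Dmrt3 was 5.82 without hippocampus replicate 3 on the log2 scale.

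Factors that make and maintain astroglia differed in 1 direction. Of 16, all tested, 6 were higher in hippocampus and none lower (median 0.33). Nfib, a nuclear factor I protein that starts astrocyte differentiation (chromosome 4, 82290173 to 82705750, minus strand), had 3535, 3341, 3670.3 and 3552 in cortex and 8602, 9313 and 7199 in hippocampus (log2 difference 1.24 ± 0.10 (SE), adjusted p = 1.21e-05). Its relative Nfia had 7818, 7239, 8136 and 9081 in cortex and 14350, 16079 and 14760 in hippocampus (log2 difference 0.90 ± 0.09 (SE), adjusted p = 5.09e-05). Npas3, a PAS-domain factor, had 672, 718, 570.0 and 698 in cortex and 1699, 1751 and 1682 in hippocampus (log2 difference 1.37 ± 0.13 (SE), adjusted p = 4.32e-05). The mean was 2.38-fold, 1.87-fold and 2.58-fold that of cortex for the 3 genes, with no overlap of libraries. Id4, an inhibitor of basic helix-loop-helix factors, was higher by 0.92 and Tcf4 by 0.48 on the log2 scale. Nfix (0.31, adjusted p = 0.0846), Sox2 (0.14, adjusted p = 0.566) and the Notch target Hes5 (-0.35, adjusted p = 0.411) did not pass the test. The 6 calls stood under TMM, quantile and deposited scaling.

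Genes of dentate neural stem cells, which share much of the astrocyte profile, were part higher. Of 7 tested, 3 were higher and 1 lower (median 0.93). The homeodomain-only protein Hopx had 1148, 794, 941 and 938 in cortex and 1850.1, 2188 and 2812 in hippocampus (log2 difference 1.25 ± 0.16 (SE), adjusted p = 4.75e-04), and Thrsp, a regulator of fat synthesis, had 363, 322, 284 and 349.7 in cortex and 558, 611 and 721 in hippocampus (log2 difference 0.93 ± 0.18 (SE), adjusted p = 0.00451). Lpar1, a lysophosphatidic acid receptor also made by oligodendrocytes, was lower (log2 difference -1.78 ± 0.27 (SE), adjusted p = 0.00131). Of 17 cell cycle genes, 3 were higher and none lower (median 1.53). Mki67, the marker of cells in division, had 67.2, 88.1, 189 and 111 in cortex and 480.4, 471 and 339.9 in hippocampus (log2 difference 2.00 ± 0.34 (SE), adjusted p = 0.00232). Top2a, which untangles replicated DNA, had 48.9, 85.8, 158 and 117 in cortex and 367, 1312 and 361 in hippocampus, and the spindle motor Kif11 had 41.4, 49.7, 95.7 and 52.5 in cortex and 252, 273 and 239 in hippocampus. Every hippocampus library was above every cortex library for the 3 genes. Markers of young neurons were higher in the same libraries, as given above, and the part of such cells in the stem cell and cell cycle values was not tested.

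Of 34 Wnt pathway members tested, 7 were lower and 2 higher (median -0.35), against 8.29% lower and 6.92% higher over all genes (median -0.14). These counts were the same under each of the 4 other scalings and both count tests, while 3 were lower without cortex replicate 1 or 2 and 4 without cortex replicate 3. Among ligands, Wnt7a was lower, with 379.7, 375, 321 and 293 in cortex and 209.8, 155 and 153 in hippocampus (log2 difference -0.99 ± 0.22 (SE), adjusted p = 0.0113). Among receptors, Fzd3 was higher, with 1726, 2076, 2096 and 2137 in cortex and 4592, 4954 and 4376 in hippocampus (log2 difference 1.21 ± 0.10 (SE), adjusted p = 2.38e-05), as was the co-receptor Lrp6 (log2 difference 0.56 ± 0.12 (SE), adjusted p = 0.00823). The receptor Fzd10 was lower, with 107, 157, 91.3 and 94.7 in cortex and 0, 0 and 3.47 in hippocampus (log2 difference -6.07 ± 0.78 (SE), adjusted p = 4.75e-04). Receptors thus went both ways without overlap of libraries. Fzd1 and the R-spondin receptor Lgr6 were lower (log2 differences -0.77 and -1.09). The secreted inhibitor Dkk3 had 2557, 2638, 2559 and 2794 in cortex and 1865, 1280.0 and 1692 in hippocampus (log2 difference -0.73 ± 0.13 (SE), adjusted p = 0.00287). Of 8 tested factors and targets, 2 were lower, Nkd1 (log2 difference -1.45 ± 0.32 (SE), adjusted p = 0.011) and Apcdd1 (log2 difference -0.80 ± 0.19 (SE), adjusted p = 0.0141), which inhibit the pathway, while Axin2, an inhibitor that Wnt signals induce, did not pass the test (-0.60, adjusted p = 0.295). Adjusted p rose above 0.05 for Wnt7a without cortex replicates 1 or 2 (0.0539), Fzd1 without cortex replicates 1, 2, 3 or 4 or hippocampus replicates 2 or 3 (0.13), Lgr6 without cortex replicates 1, 2, 3 or 4 or hippocampus replicate 1 (0.112), Nkd1 without cortex replicate 2 (0.051) and Apcdd1 without cortex replicates 1 or 3 (0.0599). The difference of Fzd10 was -6.90 without hippocampus replicate 3 on the log2 scale.

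In the Hedgehog pathway, by which neurons tune regional astrocytes, 1 of 10 tested members differed, against 15.2% of all genes. It was Smo, the signal-passing membrane protein, with 649, 685, 538 and 619 in cortex and 1603, 989.6 and 971 in hippocampus (log2 difference 0.90 ± 0.18 (SE), adjusted p = 0.00729). The receptor Ptch1 (-0.05, adjusted p = 0.823) and the factors Gli2 (0.36, adjusted p = 0.311) and Gli3 (0.02, adjusted p = 0.92) did not pass the test. In the BMP pathway, 4 of 16 were higher and 3 lower. The rises were in the receptors Bmpr1a (3291, 2952, 3097 and 3384 in cortex and 5267, 4750.0 and 4737 in hippocampus, log2 difference 0.63 ± 0.09 (SE), adjusted p = 8.73e-04) and Bmpr2 (log2 difference 0.49 ± 0.09 (SE), adjusted p = 0.00319), the signal carrier Smad5 (log2 difference 0.62 ± 0.12 (SE), adjusted p = 0.00424) and the target Id4. The falls were in the ligands Bmp4 and Bmp7 and in Chrdl1. Bmp7 had 301, 251, 298 and 275 in cortex and 111, 81.7 and 159.5 in hippocampus (log2 difference -1.30 ± 0.27 (SE), adjusted p = 0.00825). The called receptors and ligands went in opposite directions, each without overlap of libraries. Bmp4 is also a marker of oligodendrocyte precursors, and its call was lost without any 1 cortex library (adjusted p up to 0.102).

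The GABA-B receptor, which senses GABA through G proteins and works as a pair of 2 subunits, was lower in hippocampus in both parts. Gabbr1, the GABA-binding subunit (chromosome 17, 37045966 to 37075067, plus strand), had 8110.4, 8798, 7944 and 9103 in cortex and 5458, 6290.4 and 7123 in hippocampus (log2 difference -0.44 ± 0.10 (SE), adjusted p = 0.0104). Gabbr2, the subunit that couples to the G protein (chromosome 4, 46662305 to 46991873, minus strand), had 3546, 4803, 3449 and 4438 in cortex and 1168, 1495 and 1172 in hippocampus, 3.17-fold higher in cortex (log2 difference -1.66 ± 0.14 (SE), adjusted p = 2.06e-05). Neither gene overlapped between the regions, and the exact two-sided permutation p was 0.0571 for each, the smallest that 3 against 4 libraries allow. Kctd12, an auxiliary subunit that speeds the desensitisation of the receptor, was higher, with 937, 1549, 1225 and 1334 in cortex and 3507, 2736 and 3520.0 in hippocampus (log2 difference 1.38 ± 0.16 (SE), adjusted p = 2.16e-04).

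Of 20 tested genes of GABA signalling, 3 were higher and 3 lower. Abat, the enzyme that breaks down GABA, had 9833, 9753, 9038 and 10049 in cortex and 3792, 4232 and 5250.5 in hippocampus (log2 difference -1.14 ± 0.10 (SE), adjusted p = 4.04e-05). The GABA-A channel subunits that were higher were Gabra4 with 513, 566, 464 and 555 in cortex and 994, 987 and 1138 in hippocampus (log2 difference 0.99 ± 0.14 (SE), adjusted p = 9.72e-04) and Gabrg1 with 1634, 1664, 1332 and 1556 in cortex and 2041, 2194 and 2115 in hippocampus (log2 difference 0.46 ± 0.11 (SE), adjusted p = 0.0167). The Gabrg1 call was lost with the deposited scaling and for Gabrg1 without cortex replicates 3 or 4 (0.0598). The GABA transporter Slc6a11 (7441, 7648, 7046 and 8134 in cortex and 9683, 8416 and 8822 in hippocampus, 0.25, adjusted p = 0.0598) did not pass the test.

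Receptors for glutamate and other transmitters split by gene. Of 22 tested, 4 were higher and 7 lower (median -0.29). The metabotropic receptor Grm5, which triggers calcium rises in young astrocytes (chromosome 7, 87584168 to 88134907, plus strand), had 544, 659, 610.3 and 667 in cortex and 1724, 2280.4 and 1807 in hippocampus, 3.12-fold higher in hippocampus (log2 difference 1.64 ± 0.14 (SE), adjusted p = 2.58e-05). The AMPA receptor subunit Gria2 had 1328, 1324, 1324 and 1258 in cortex and 2540.2, 2246 and 2407 in hippocampus (log2 difference 0.87 ± 0.10 (SE), adjusted p = 2.07e-04). The endothelin receptor Ednrb had 6156, 6473, 6421 and 6496 in cortex and 13700, 10853 and 14031 in hippocampus (log2 difference 1.00 ± 0.09 (SE), adjusted p = 4.15e-05). Every library of these 3 genes was higher in hippocampus than any in cortex. Htr2c, a serotonin receptor that is abundant in the choroid plexus, had 3.4, 1.13, 0.56 and 14.1 in cortex and 214, 323 and 38.1 in hippocampus (log2 difference 5.18 ± 1.00 (SE), adjusted p = 0.00517), and choroid plexus markers were higher in the same libraries. On the log2 scale Htr2c was 5.83 without cortex replicate 4 and 6.13 without hippocampus replicate 3.

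The falls were in Adra1b, Lpar1, Grin2c, Cnr1, Ntsr2, Grm3 and P2ry12. Adra1b, an adrenergic receptor of low level here, had 31.9, 29.4, 19 and 23.4 in cortex and 10.5, 0 and 0 in hippocampus (log2 difference -3.55 ± 1.06 (SE), adjusted p = 0.0413). Its call was lost without cortex replicates 1, 2, 3 or 4 or hippocampus replicates 2 or 3 (0.142), with quantile normalization, with scaling over the 7 P14 libraries alone and by edgeR and DESeq2, and on the log2 scale Adra1b was -4.80 without hippocampus replicate 1. The NMDA receptor subunit Grin2c was lower, with 1040.5, 1128, 1293 and 1133 in cortex and 575, 531 and 472 in hippocampus (log2 difference -1.13 ± 0.14 (SE), adjusted p = 3.22e-04). The cannabinoid receptor Cnr1 was lower, with 630.3, 961, 798 and 859 in cortex and 432, 473 and 465 in hippocampus (log2 difference -0.81 ± 0.17 (SE), adjusted p = 0.00716). Grm3, the main metabotropic glutamate receptor of mature astrocytes, had 8879.9, 12293, 9915 and 10592 in cortex and 7948, 8603 and 8239.8 in hippocampus, a small fall (log2 difference -0.33 ± 0.10 (SE), adjusted p = 0.0458) lost on leaving out any 1 library but cortex replicate 1 (adjusted p up to 0.125). Among 9 tested genes of glutamate handling, Slc1a3 was higher and Glul lower.

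Of 17 channels, pumps and junction genes for ions and water, 4 were higher and 4 lower. The potassium channels changed in opposite directions. Kcnj10 (Kir4.1), which buffers potassium, had 27818, 26223, 23870 and 28100 in cortex and 19298, 20414 and 19545 in hippocampus (log2 difference -0.42 ± 0.07 (SE), adjusted p = 0.00232). Kcnk1 (TWIK-1), a leak channel, had 2159.9, 1949, 1606 and 1894 in cortex and 589, 1018 and 642 in hippocampus (log2 difference -1.38 ± 0.18 (SE), adjusted p = 5.17e-04). Kcnk2 (TREK-1), a leak channel that responds to stretch, was higher, with 661, 593, 707 and 645 in cortex and 1133, 994 and 992 in hippocampus (log2 difference 0.67 ± 0.13 (SE), adjusted p = 0.00592). The regions did not overlap for any of the 3 channels. Dag1, the dystroglycan that anchors Aqp4 at endfeet, was higher by 0.42 on the log2 scale (adjusted p = 0.0122, and 0.051 without cortex replicate 2).

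Secreted factors that act on synapses also split. Of 19, all tested, 2 were higher and 3 lower. Chrdl1, which switches AMPA receptors at synapses to calcium-impermeable ones (chromosome X, 143285674 to 143394262, minus strand), had 3564, 4084, 2772 and 3542 in cortex and 957, 1074 and 1162 in hippocampus, 3.28-fold higher in cortex (log2 difference -1.70 ± 0.13 (SE), adjusted p = 1.29e-05). Gpc4, a glypican that recruits AMPA receptors to new synapses, had 211, 182, 143 and 158 in cortex and 432, 381 and 392 in hippocampus (log2 difference 1.22 ± 0.22 (SE), adjusted p = 0.00346). Sparcl1 (hevin), which links neurexin to neuroligin, had 129890, 122162, 105378 and 119988 in cortex and 95255, 89472 and 90479 in hippocampus (log2 difference -0.38 ± 0.07 (SE), adjusted p = 0.00414). The regions were apart in every library for the 3 genes, though the Sparcl1 call was lost under quantile normalization. Tgfb2 was higher (log2 difference 0.69 ± 0.14 (SE), adjusted p = 0.00823) and Mertk, a receptor by which glia engulf synapses, lower (log2 difference -0.58 ± 0.14 (SE), adjusted p = 0.0142). Sparc (-0.04, adjusted p = 0.806), Gpc6 (0.33, adjusted p = 0.0645) and Gpc5 (0.23, adjusted p = 0.205) did not pass the test. The call was lost for Mertk without cortex replicates 1 or 4 (0.0544).

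Of 13 tested genes of the extracellular matrix of brain tissue, 5 were higher and 2 lower (median 0.61). Tnc (tenascin-C), made by young astrocytes and stem cells, had 571, 714, 569 and 718 in cortex and 1955, 1876 and 1415 in hippocampus (log2 difference 1.44 ± 0.16 (SE), adjusted p = 1.38e-04). The proteoglycan Ncan had 55117, 62730, 57809 and 66410 in cortex and 98181, 89902 and 88474 in hippocampus (log2 difference 0.61 ± 0.07 (SE), adjusted p = 2.44e-04). Ptprz1, a phosphatase with a proteoglycan ectodomain that binds tenascins, had 42005, 48346, 46098 and 51655 in cortex and 91448, 79232 and 81393 in hippocampus (log2 difference 0.84 ± 0.08 (SE), adjusted p = 4.17e-05). Vcan (log2 difference 1.09 ± 0.19 (SE), adjusted p = 0.00257) and the link protein Hapln1 (log2 difference 0.81 ± 0.08 (SE), adjusted p = 4.50e-05) were higher as well. Bcan (brevican) went against its relatives, with 5904, 5126, 5473 and 5668 in cortex and 2677, 3094 and 2934 in hippocampus (log2 difference -0.93 ± 0.09 (SE), adjusted p = 5.09e-05), as did Tnr (tenascin-R), with 364, 457, 416 and 311 in cortex and 109, 187 and 191 in hippocampus (log2 difference -1.28 ± 0.26 (SE), adjusted p = 0.00609). None of the 7 genes overlapped between the regions. Of 20 tested axon guidance genes 3 differed, a share close to the 15.2% of all genes: Slit2 and the ephrin receptor Epha5 were higher and the semaphorin receptor Plxnb1 lower, with 3466, 3230.2, 3323 and 3764 in cortex and 2037, 2351 and 2171 in hippocampus (log2 difference -0.66 ± 0.10 (SE), adjusted p = 0.0011). The Epha5 libraries overlapped, and its call was lost with TMM, quantile or deposited scaling and for Epha5 without cortex replicates 1, 2, 3 or 4 or hippocampus replicates 1 or 3 (0.131).

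Genes that shape astrocyte processes and contacts gave 2 rises and 3 falls among 12 tested. The adhesion proteins neuroligin 1 and 2, which bind neurexin on neurons, moved apart. Nlgn1 had 651, 602, 725 and 682 in cortex and 1313, 1196 and 1287 in hippocampus (log2 difference 0.93 ± 0.13 (SE), adjusted p = 7.31e-04), and Nlgn2 had 406, 479, 382 and 492 in cortex and 176, 256 and 139 in hippocampus (log2 difference -1.24 ± 0.24 (SE), adjusted p = 0.0047). Ezr (ezrin), which links membrane to actin in the fine processes, had 3358, 2887, 2906 and 3270.3 in cortex and 1835, 2517 and 2272 in hippocampus (log2 difference -0.50 ± 0.12 (SE), adjusted p = 0.015), and this call was lost for Ezr without cortex replicates 1 or 4 (0.0553).

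**Figure D4:**
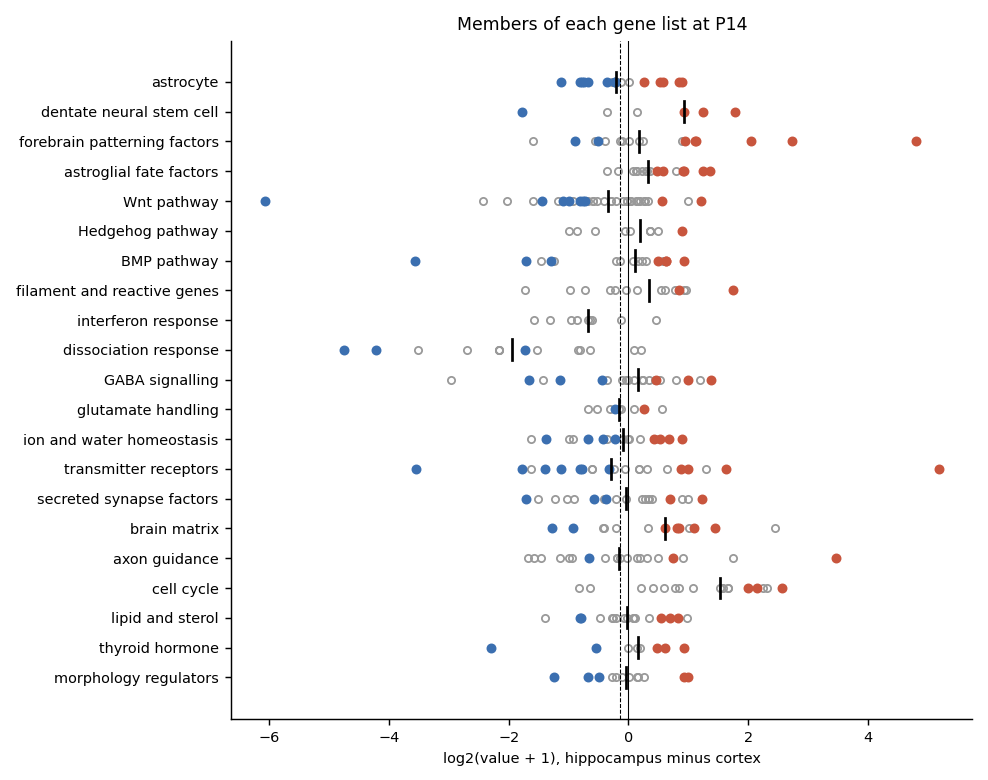
Log2 difference between hippocampus and cortex at P14 of each tested member of 21 gene lists (x axis), 1 list per row, with filled points for called genes and a tick at the list's median. The astrocyte, GABA, receptor and ion lists hold called genes on both sides. Choroid plexus, oligodendrocyte and microglial markers are not drawn here.

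Of 14 tested filament and reactive genes, 2 were higher, Gfap and Osmr, and none lower, against 15.2% of all genes called in either direction. Osmr, the oncostatin M receptor, had 158, 91.5, 168 and 186 in cortex and 342, 508 and 676 in hippocampus (log2 difference 1.74 ± 0.30 (SE), adjusted p = 0.00278). The filament genes Vim (379, 419, 649.5 and 409.7 in cortex and 764, 544 and 683 in hippocampus, 0.53, adjusted p = 0.106) and Nes (0.93, adjusted p = 0.0669) and the reactive gene Serpina3n (105, 85.8, 133 and 84.4 in cortex and 339.8, 133 and 114 in hippocampus, 0.78, adjusted p = 0.203) did not pass the test. Lcn2, another reactive gene, was at 0 in all but 1 library. No interferon response gene of 9 tested passed by limma, edgeR or DESeq2 (1 at an unadjusted limma p under 0.05). Of 14 tested genes that cell dissociation induces, 3 were lower in hippocampus: Fosb, Egr1 and Zfp36. Egr1 had 366, 294, 717 and 292 in cortex and 138, 64.5 and 177 in hippocampus (log2 difference -1.72 ± 0.38 (SE), adjusted p = 0.0111), with cortex replicate 3 the highest. Fosb had 30.6, 11.3, 161 and 7.5 in cortex and no read in hippocampus, and its call was lost without cortex replicate 1 (0.0839) and with a pseudocount of 8. Without cortex replicate 3 Fosb did not reach the mean of 10 and was not tested. On the log2 scale Zfp36 was -3.25 without hippocampus replicate 2 and -5.06 without hippocampus replicate 3. Summed dissociation genes lay between 1267 and 2936 in cortex and between 934 and 1422 in hippocampus. The part of dissociation in other differences was not tested.

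Lipid and thyroid hormone genes moved in both directions. Of 17 lipid and sterol genes, 3 were higher and 2 lower. Fabp7, the fatty acid binder of radial glia and young astrocytes, had 5057, 5957, 6054 and 6749 in cortex and 9439, 10821 and 11212 in hippocampus (log2 difference 0.82 ± 0.10 (SE), adjusted p = 3.46e-04). Hmgcs1, an early enzyme of cholesterol synthesis, had 10888, 12305, 11735 and 12084 in cortex and 19264, 14945 and 17090 in hippocampus (log2 difference 0.53 ± 0.09 (SE), adjusted p = 0.00215), and the cholesterol exporter Abca1 was higher by 0.69 on the log2 scale. Acsbg1 and the lipid synthesis factor Srebf1 (-0.79, adjusted p = 0.0197) were lower, Srebf1 not without any 1 cortex library (adjusted p up to 0.0865). Of 8 thyroid hormone genes tested, 3 were higher and 2 lower. Dio2, the deiodinase that makes active thyroid hormone in astrocytes, had 22072, 28714, 22453 and 26225 in cortex and 14308, 17447 and 19573 in hippocampus (log2 difference -0.54 ± 0.11 (SE), adjusted p = 0.00823), and the hormone target Hr had 71.3, 115, 63.8 and 94.7 in cortex and 21, 15.1 and 13.9 in hippocampus (log2 difference -2.29 ± 0.50 (SE), adjusted p = 0.0102). Both were lower in every hippocampus library, although the Dio2 call was lost under quantile normalization and that of Hr without cortex replicates 2 or 4 (0.0579). The receptor Thrb (0.47, adjusted p = 0.0388) and the target Klf9 (0.62, adjusted p = 0.0326) were higher, and both calls were lost with TMM, quantile or deposited scaling and for Thrb without cortex replicates 1, 2, 3 or 4 or hippocampus replicates 1 or 2 (0.117) and Klf9 without cortex replicates 1, 2 or 3 or hippocampus replicates 2 or 3 (0.105).

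The region difference was set against the same difference at P1 and P7 by an interaction term over the 6 groups of 3 to 4 libraries. For 1808 of 12843 genes (14.1%) the difference at P14 was not that at P1, with 971 shifted toward hippocampus (7.56%) and 837 toward cortex (6.52%). For 1189 genes (9.26%) it was not that at P7 (584 and 605, 4.55% and 4.71%). Of 1786 genes called at P14 and in this fit, 78.6% had the same sign at P1 and 72.7% at P7, against 65.2% and 59.9% over all genes. These ages share no library with P14. Summed choroid plexus markers, at P14 higher in hippocampus, were between 260.3 and 2318 in cortex and between 319 and 760 in hippocampus at P1, and between 872 and 5133 and between 688 and 2559 at P7. Summed astrocyte markers at P1 lay between 58462.5 and 74852 in cortex and between 35724 and 41994 in hippocampus. Summed young neuron markers at P1 lay between 16635 and 25900 in cortex and between 37170 and 50943 in hippocampus. The part of these list-wide differences in the shifts of single genes with age was not tested.

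Several astrocyte genes changed sides with age, and summed astrocyte markers were also lower in hippocampus at P1. Aqp4 stood at a log2 difference of -1.13 at P1, -0.28 at P7 and 0.89 at P14, below 0 at P1 and above 0 at P14. The shift from P1 was 2.02 ± 0.18 (SE), adjusted p = 7.42e-07. Its mean rose from 1234 ± 69.6 (SD, n = 3) at P1 to 14635 ± 1961 at P7 in hippocampus, and from 2744 ± 622 to 17722 ± 1542 in cortex. Slc4a4 went from -1.08 at P1 to 0.53 at P14 (shift 1.62 ± 0.19 (SE), adjusted p = 1.04e-05). Ednrb went from -0.84 to 1.00 (shift 1.84 ± 0.17 (SE), adjusted p = 7.42e-07), and Grm5 from -0.93 to 1.64 (shift 2.57 ± 0.18 (SE), adjusted p = 4.50e-08). The shift from P7 also passed the test for all 4 genes. Fabp7 went from -1.65 to 0.82 (shift 2.48 ± 0.19 (SE), adjusted p = 1.12e-07) and Gabrg1 from -0.92 to 0.46 (shift 1.37 ± 0.21 (SE), adjusted p = 1.45e-04). The receptor genes Grin2c and Fzd1 went the other way: Grin2c from 1.91 to -1.13 (shift -3.03 ± 0.36 (SE), adjusted p = 1.04e-05) and Fzd1 from 2.09 to -0.77 (shift -2.85 ± 0.29 (SE), adjusted p = 2.79e-06).

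Other differences had the same sign at P1. Zbtb20 stood at 1.77, 1.47 and 1.13 at P1, P7 and P14, and Nfib at 1.95, 0.85 and 1.24, higher in hippocampus at each age. For Nfib the P14 difference was smaller than at P1 (shift -0.71 ± 0.17 (SE), adjusted p = 0.00812). Hopx stood at 1.34, 1.42 and 1.25. Gabbr2 stood at -2.06, -1.78 and -1.66, lower in hippocampus at each age, with shifts of 0.39 ± 0.31 (SE), adjusted p = 0.436 and 0.12 ± 0.31 (SE), adjusted p = 0.851 that did not pass the test. Gabbr1 stood at -1.30, -0.49 and -0.44, and its difference was smaller at P14 than at P1 (shift 0.87 ± 0.16 (SE), adjusted p = 0.00131). Abat narrowed as well, from -2.13 to -1.14 (shift 0.99 ± 0.19 (SE), adjusted p = 0.0017), while Chrdl1 widened from -0.80 to -1.70 (shift -0.90 ± 0.18 (SE), adjusted p = 0.00238).

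**Figure D5:**
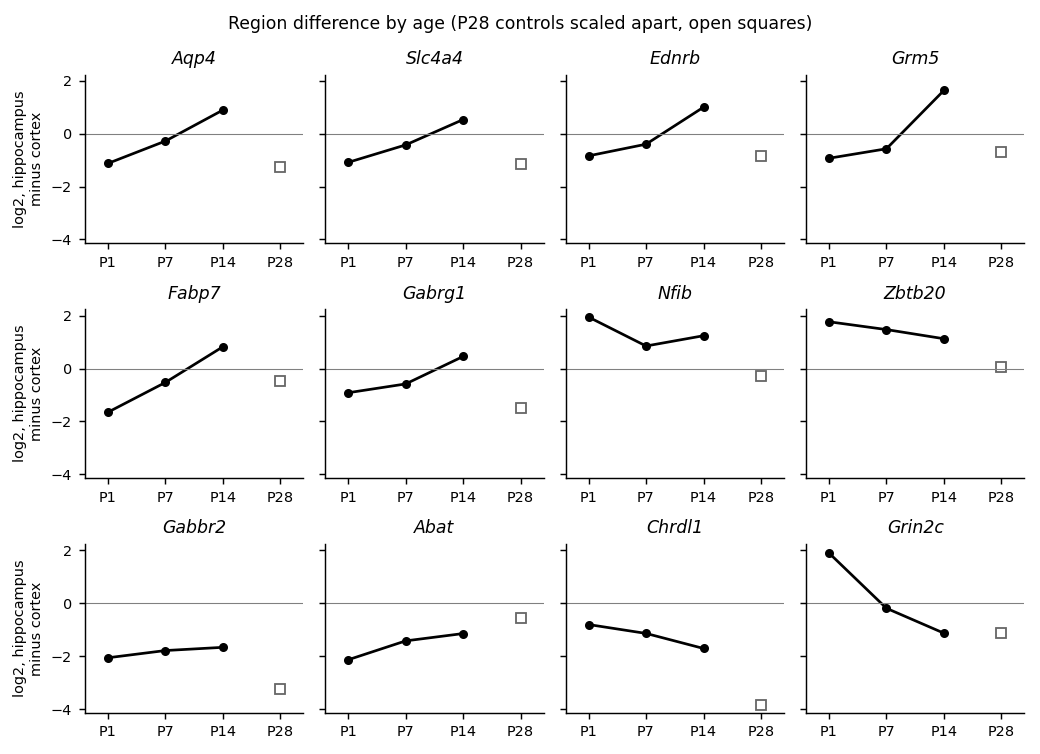
Log2 difference between hippocampus and cortex (y axis) of 12 genes at P1, P7 and P14 (points joined by lines) and in the P28 controls (open squares, scaled on their own), with no error bars. Aqp4, Slc4a4, Ednrb, Grm5, Fabp7 and Gabrg1 cross from below 0 at P1 to above 0 at P14, Nfib and Zbtb20 stay above 0 to P14, and Gabbr2, Abat and Chrdl1 stay below.

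The largest shifts by the naming rule included markers of other cell types, Enpp2 of choroid plexus and Dcn of meninges. Toward hippocampus they were Slc4a10, St6gal2, Vat1l, Necab1 and Gucy1a3 against P1, and B3gnt5, Vat1l, Slc4a10, Socs2 and Enpp2 against P7. Slc4a10, a bicarbonate transporter of choroid plexus and neurons, had 10.2, 37.3, 24.6 and 11.3 in cortex and 124, 443 and 153 in hippocampus at P14 and shifted by 4.95 ± 0.79 (SE), adjusted p = 2.73e-04 from P1. Gucy1a3, a subunit of the nitric oxide receptor, had 459.8, 325, 431 and 309 in cortex and 740.5, 766 and 666 in hippocampus at P14 and went from -3.17 at P1 to 0.94 (shift 4.11 ± 0.24 (SE), adjusted p = 4.07e-09). Toward cortex they were Itga4, Mdga1, Fosb, Dcn and Slc7a8 against P1, and Fosb, Adgrf5, Itga4, Ryr3 and Slc7a8 against P7. Fosb is a gene that dissociation induces, and the summed dissociation genes stood the other way at P7, between 2953 and 5974 in cortex and between 10990 and 23529 in hippocampus. At P1 they lay between 1739.6 and 3861 in cortex and between 3666 and 4997 in hippocampus. Their part in the shifts with age was not tested. Slc7a8 went from -0.11 at P1 and 0.36 at P7 to -4.28 at P14 (shift from P1 -4.17 ± 0.43 (SE), adjusted p = 2.82e-06).

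At P28, 6 libraries from animals labelled Gabbr1 control, 2 of hippocampus and 4 of cortex, give the same comparison at a later age. The hippocampus libraries and cortex replicates 3 and 4 are labelled with tamoxifen, and cortex replicates 1 and 2 are from the first deposit. Region at P28 is thus partly tied to this label and to deposit, and the part of either was not tested. The choroid plexus sums of the P28 controls were wider apart than at P14, between 658 and 14927 in cortex and between 102011 and 214790 in hippocampus. Their astrocyte list stood at 11 of 20 lower and none higher (median -1.07), with sums between 287982.5 and 481397 in cortex and between 169455 and 190584 in hippocampus. At P28 none of 10 mature oligodendrocyte markers (median -0.04) and none of 9 precursor markers (median 0.85) was called. Of 9 microglial markers 1 was lower (median -2.63). Of 10 brain matrix genes 5 were lower and none higher (median -0.90), and of 16 astroglial fate factors 2 were lower and none higher (median -0.39). There, 423 of 10910 genes were higher in hippocampus (3.88%) and 424 lower (3.89%), 7.76% in all. Of P14 calls tested at P28, 63.1% had the same sign there, 55.2% of those higher and 70.3% of those lower at P14, against 53.8% over all genes. Both ages called 268 genes, 222 in the same direction, which is 13.1% of the P14 calls and 27.8% of the P28 calls among the genes tested at both. Without hippocampus replicate 1 the P28 test called 24 genes, and without replicate 2 it called 126.

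Single genes differed in what P28 showed. Gabbr2 had 1522, 1554, 1089 and 991 in cortex and 118 and 148 in hippocampus (log2 difference -3.25 ± 0.26 (SE), adjusted p = 1.63e-04), and Chrdl1 had 1624, 1678, 1779 and 1469 in cortex and 148 and 86 in hippocampus (log2 difference -3.85 ± 0.25 (SE), adjusted p = 7.69e-05), both lower in hippocampus as at P14. Gabbr1 was lower too (log2 difference -1.41 ± 0.30 (SE), adjusted p = 0.0166). Astrocyte markers were lower as a list in these libraries (median -1.07). The part of that list-wide fall in the P28 values of single genes was not tested. Otx2 had 20.8, 7.1, 0 and 45.4 in cortex and 1304 and 1088 in hippocampus (log2 difference 6.97 ± 1.15 (SE), adjusted p = 0.00616), in libraries whose choroid plexus sums differed as given above. Aqp4 had 7736, 6885, 7732 and 6956 in cortex and 2946 and 3235 in hippocampus (log2 difference -1.24 ± 0.22 (SE), adjusted p = 0.00832), the opposite of its P14 direction, and Slc4a4 was also lower (log2 difference -1.14 ± 0.26 (SE), adjusted p = 0.0228). Grm5 (log2 difference -0.69 ± 0.44 (SE), adjusted p = 0.42) and Zbtb20 (log2 difference 0.06 ± 0.23 (SE), adjusted p = 0.918) did not pass the test at P28. Gfap stood higher at P28 but missed the threshold (log2 difference 0.96 ± 0.27 (SE), adjusted p = 0.0557).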

How the data were processed

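RNA from astrocytes was made into libraries from 500 pg to 1 ng of total RNA with the Trio RNA-seq (Nugen) kit, per the labels' protocols. STAR 2.5.0a, DESeq2 1.20.0, FastQC, MultiQC and the mm10 build are named in the submitters' processing notes. The counting program, annotation and strand setting are not given in the sources used here, so reads of a gene and its antisense partner cannot be told apart. The deposited values are a normalized signal per gene, 24421 symbols per table: the authors divided gene reads by 1 factor per library, separately in each region's table. Dividing each column by its smallest positive value gave whole reads for 100% of values (within 0.02 reads).

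From these reads, Rn45s was dropped, 27 symbols that had turned into dates were restored from the row order of a table that keeps them, the tables were joined by row, and the 19 cortex and hippocampus libraries of P1, P7 and P14 were rescaled together by median ratio. The 6 P28 controls were rescaled among themselves. Each test used limma 3.58.1 (lmFit, eBayes with trend) in R 4.3.3 on log2(value + 1) for genes with a mean of at least 10, with Benjamini-Hochberg adjustment over all genes tested and a threshold of 0.05; the procedure was tested on simulated data. Folds against a group without reads use a floor of 3 reads in each library, and such limits cover counting error only.

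Groups came from the tissue, age and genotype labels; replicate numbers follow accession order and pair nothing. Named are the 12 largest rises and falls among called genes of at least median level whose groups do not overlap (5 each way for shifts with age), without predicted genes and pseudogenes, plus Gabbr1, Gabbr2 and list members; some list members are counted but not reported by name here. Members and lists were chosen with earlier results of these data known. Coordinates are from the GENCODE annotation of mm10, matched by symbol for 96.5% of genes tested. Alternatives were pseudocounts, filters, scalings, limma without trend or with array weights, limma-voom, edgeR 4.0.16, DESeq2 1.42.0, thinning to the smallest library, an Xist covariate, fits with more groups and leaving out each library; scaling over the 7 P14 libraries alone and the libraries with Y-linked reads only were added after seeing the data.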

Additional observations from a re-analysis of the deposited data

Results flagged for a closer look

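In the 4 cortex P14 libraries, 7 of 53 sets of values examined (named genes and summed marker lists) had 1 library far from the others. The rule flags about 1 in 20 sets of independent, normally distributed values. Read counts of genes named from these data are not such values, so that rate sets no expectation here. The 7 sets were Mal (369 in replicate 2), Rims1 (716 in replicate 2), Kif5a (6195 in replicate 2), Slc7a8 (341 in replicate 4), Fosb (161 in replicate 3), Adgrf5 (458 in replicate 3) and Otx2 (0.938, that is 1 read, in replicate 4, with 0 in the others). With 0 in the others, 1 read is always flagged. For Mal, Rims1, Kif5a, Slc7a8, Fosb and Adgrf5 every other cortex library was also above every hippocampus library. The naming rule asks for no overlap between the regions, so this was fixed by the choice of genes. Fosb was not tested without replicate 3, since its mean then fell below 10, and its other cortex values (30.6, 11.3 and 7.5) were low. Myelin, endothelial and immediate early genes were also highest in replicates 2 and 3 of cortex: the summed oligodendrocyte markers reached 47330 in replicate 2, the endothelial markers 1731 in replicate 3. Groups of 3 libraries were not examined in this way.

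The region difference at P14 differed from that at P1 for 1808 genes and from that at P7 for 1189 genes, by an interaction test. Against P1 the log2 shift was 4.95 for Slc4a10, 4.89 for St6gal2, 4.85 for Vat1l, 4.27 for Necab1 and 4.11 for Gucy1a3 toward hippocampus. Toward cortex it was -6.23 for Itga4, -5.12 for Mdga1, -5.01 for Fosb, -4.99 for Dcn and -4.17 for Slc7a8. Against P7 it was 4.39 for B3gnt5, 4.33 for Vat1l, 3.87 for Slc4a10, 3.61 for Socs2 and 3.38 for Enpp2 toward hippocampus. Toward cortex it was -7.11 for Fosb, -5.53 for Adgrf5, -4.86 for Itga4, -4.86 for Ryr3 and -4.64 for Slc7a8. Fosb and Ryr3 had no read in hippocampus at P14, so their fitted shifts depend on the pseudocount. Summed dissociation genes, of which Fosb is one, lay between 10990 and 23529 in hippocampus at P7, above the 2953 to 5974 in cortex, and their part in these shifts was not tested. At P14 Necab1 itself did not pass the test (1.48, adjusted p = 0.135), and its hippocampus libraries held 39.9, 243 and 65.9 against 29.2, 39.5, 37.5 and 19.7 in cortex.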

How the results depend on the processing

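The 1814 calls at P14 were 1017 with no filter on low values, 859 with limma without trend, 1168 with array weights, 939 with an added 2-fold requirement, 4180 with 6 groups in 1 fit and 76 in the libraries with Y-linked reads only, 2 against 2. Leaving out 1 library gave 937 to 2419. The share of calls higher in hippocampus (45.5%) was 33.2% with TMM, 32.1% with the deposited scaling, 60.4% with limma-voom and 31.4% with the 2-fold requirement; edgeR called 1792 genes and DESeq2 2521. The 1808 shifts from P1 were 835 with array weights and 1307 to 2761 without 1 library; the share toward hippocampus (53.7%) was 64.6% with a minimum mean of 100, 68.9% with the deposited scaling and 63.9% on thinned reads. The 1189 shifts from P7 were 754 with quantile normalization, 367 with array weights, 1810 with DESeq2, 780 on thinned reads and 748 to 2265 without 1 library; the share toward hippocampus (49.1%) was 70.5% with a minimum mean of 100, 63.6% with the deposited scaling, 67.8% with limma-voom and 61.5% on thinned reads. The 847 P28 calls were 214 with no filter, 2032 with the deposited scaling (94.5% higher in hippocampus, median of all genes 0.70), 187 without trend, 2074 with array weights, 1390 with DESeq2, 1388 with the cortex controls of the first deposit only and 24 to 929 without 1 library. The cause of these changes was not tested.

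Of 163 named genes called at P14, 117 kept the call without each library (Dsp was not tested without 1 of them); the other 46 lost it without at least 1 cortex library, and 18 of those also without a hippocampus library. Another scaling or tool ended the call of 21, and none changed sign under any of the scalings. Of the 10 named shifts from P1, 8 held under each setting run, as did 8 of 10 from P7. List counts were within 1.5 times under each setting for 42 of 70. No paired analysis was possible because the replicate numbers follow accession order and the library names carry no shared number. Hippocampus depth, 2539583 to 4248087 reads, limits what can be seen of low genes there. At P14 12300 to 12432 genes had a read in a hippocampus library. P7 hippocampus replicate 3, with 4002881 reads, had 15564. The part of depth, age or library making in this was not tested.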
